A study of Sus scrofa with 48 samples.

Results

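Late-numbered pig microRNAs (miRNAs) are described here in seminal plasma extracellular vesicles (SPEVs) of boars. The members were chosen by name only: every miRNA whose number, directly after "ssc-miR-", is 2000 or higher. This rule took 49 of the 345 miRNAs in the count table, from miR-2320 upwards, and the highest number outside it was 1842. miRNAs are short RNAs that guide Argonaute proteins to messenger RNAs, mainly through the bases at positions 2 to 8, called the seed. They are cut from hairpins, and each hairpin can give a mature miRNA from its 5′ arm (5p) and from its 3′ arm (3p). Numbers were given in the order of registration, so that old and widely conserved families mostly have low numbers, and high numbers hold many miRNAs first registered in few species. Conservation itself was not measured here, and some members, such as miR-3613, miR-6516 and miR-6782, also have human entries. Accessory glands, epididymis and testis release vesicles into seminal plasma, and these vesicles carry miRNAs to sperm.

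The small RNA libraries came from boars labelled as Yorkshire, a breed given as large white in the study's methods. Of these boars, 12 had high sperm motility (H group, group mean of total motility 0.94) and 12 had low sperm motility (L group, 0.40). Their ages ran from 14 to 36 months, so that every male had reached sexual maturity by the study's account. Vesicles were pelleted by ultracentrifugation from the seminal plasma of each boar. Each library was a different boar. The comparison of L with H asks which vesicle miRNAs differ with sperm motility.

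The H libraries held 4189358 to 9148136 miRNA reads (median 6145563) and the L libraries 4650378 to 9842872 (median 6485184). Levels are given as counts per 1000000 miRNA reads (CPM) after TMM scaling, and 3 reads stood for 0.235 to 0.759 CPM, depending on the library. Whether reads were collapsed to molecules is not given in the sources used here, so this floor covers counting error only.

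L8 and L12 stood apart from the other libraries. Their median Spearman correlations with the other libraries over all miRNAs were 0.933 and 0.897, against 0.954 to 0.975 for the other 22. Leukocyte miRNAs (miR-223, miR-142-3p, miR-142-5p, miR-150 and miR-155-5p) summed to 51.3 to 97.03 CPM in H. In L they summed to 38.7 to 99.8 CPM in 10 libraries, to 1190 CPM in L8 and to 1472 CPM in L12. Of these 5 miRNAs, all but miR-150 were called higher in L by the rule given below, and miR-155-5p had the highest mean over all libraries (58.2 CPM). By the group medians miR-142-3p was the most abundant, with 35.8 CPM in H and 31.8 CPM in L. Testis and germ cell miRNAs (miR-34c, miR-184 and both arms of miR-202) summed to 140 CPM in L8 and 179 CPM in L12, and to 622 to 2199 CPM in the other 10 L libraries. Most of this sum was miR-184, with a mean of 1017 CPM over all libraries and 32.5 CPM in L8. The others lay above their L medians in L8 (1101 reads of miR-34c, 156 of miR-202-3p and 121 of miR-202-5p). The low sum in L8 thus lay in miR-184 alone, while in L12 all of these miRNAs lay below their L medians. In vesicles, fewer vesicles from a cell type and less RNA per vesicle cannot be told apart.

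The late-numbered miRNAs were mostly rare. Reads were found for 48 of the 49, and the exception was miR-7857-3p, with 0 reads in all 24 libraries. The median member had a mean level of 1.57 CPM, against 37.4 CPM for the 296 miRNAs with lower numbers. In all 24 libraries, 17 members (34.7%) were detected, against 69.6% of the lower-numbered miRNAs. Only 6 members had a mean of 100 CPM or more, namely miR-7134-3p, miR-4334-3p, miR-7134-5p, miR-6529, miR-9843-3p and miR-2483.

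The members made up 14.2% of the miRNAs in the table and 0.331% of the counts summed over the table, in which a read that fits several miRNAs may be counted for each. In H libraries they carried 0.228% to 0.472% of the summed counts (median 0.323%), and in L libraries 0.233% to 0.452% (median 0.368%). The ranges of the groups overlapped almost completely. let-7c, let-7a, miR-148a-3p and the other miRNAs among the 10 most abundant took 70.6% of the summed counts. Without those 10 in the denominator, the members carried a median of 1.15% in H and 1.14% in L, so the order of the group medians turned. The arms of miR-7134 held 55.9% of the members' counts, and the 6 most abundant members together held 95.5%.

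**Figure D1:**
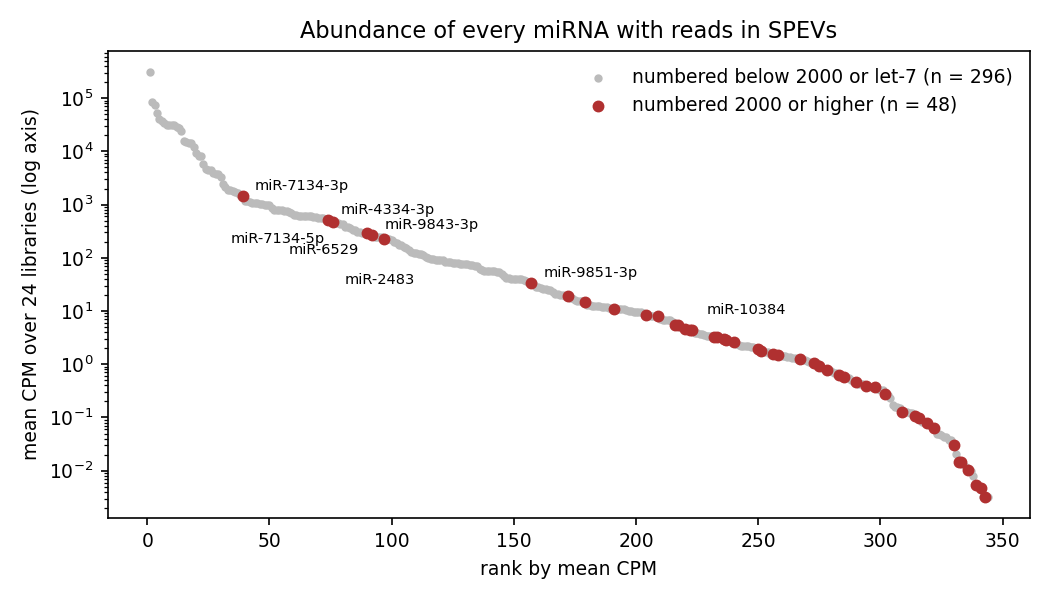
Mean CPM over 24 libraries (log axis) of each miRNA with reads, ranked from most to least abundant. Red points are the 48 miRNAs numbered 2000 or higher and grey points the 296 others. The most abundant red point is miR-7134-3p, at rank 39 with 1427 CPM.

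The miR-7134 hairpin was the main source of late-numbered miRNAs in SPEVs. It lies at chr5:8161126-8161187 on the minus strand of Sscrofa11.1, in an intron of TNRC6B and on the strand of that gene, which encodes a scaffold protein that Argonaute binds during silencing. The mature arms are shown because they carried most of the members' reads. Sequences are 5′ to 3′ from the RefSeq annotation of Sscrofa11.1, with the seed in capitals.
miR-7134-5p: aUGUCCGCggguucccuaucc
miR-7134-3p: aUGCGGAAccugcggauacgg
miR-7134-3p was found at 962 to 1726 CPM in H (median 1415) and at 765 to 2118 CPM in L (median 1480). The lowest library was L8, L3 and L1 lay above every H library, and the others overlapped. miR-7134-5p was found at 276 to 724 CPM in H (median 509) and at 117 to 676 CPM in L (median 465). Its lowest libraries were L12 and L8, and the other L libraries lay within the H range. Over all libraries the coefficient of variation was 22.2% for miR-7134-3p and 29.6% for miR-7134-5p. The median over the 76 lower-numbered miRNAs with a mean of 100 to 2000 CPM was 31.6%.

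The fold changes of the arms were small. For miR-7134-3p, the log2 fold change (L minus H) was 0.13 with a standard error (SE) of 0.14 (adjusted p = 0.848, edgeR quasi-likelihood test with Benjamini-Hochberg adjustment). For miR-7134-5p it was −0.17 with an SE of 0.20 (adjusted p = 0.864, same edgeR test), and −0.0068 without L8 and L12. Neither arm passed the test.

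miR-4334-3p, the member with the second highest level, could not be told apart from miR-339 by sequence. Its mature sequence is contained whole in miR-339 and in miR-339-5p, which are 21 and 22 bases long and come from other chromosomes. The sequences share the seed CCCUGUC and are shown for this nesting.
miR-4334-3p: uCCCUGUCcuccaggagcuc
miR-339: uCCCUGUCcuccaggagcuca
miR-339-5p: uCCCUGUCcuccaggagcucac
miR-4334-3p was annotated at chr15:121399652-121399671 on the plus strand, opposite to an intron of DNPEP, an aspartyl aminopeptidase gene. miR-339 was annotated at chr1:164026027-164026047 on the minus strand, in an intron of MEGF11. miR-339-5p was annotated at chr3:666966-666987 on the minus strand, in an intron of C3H7orf50.

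The counts of these 3 miRNAs were nested in the same order as their sequences. In all 24 libraries the count of miR-4334-3p was below that of miR-339 and below that of miR-339-5p. It was 0.792 to 0.892 of the miR-339 count and 0.598 to 0.801 of the miR-339-5p count. The total over the libraries was 80971 reads for miR-4334-3p, 95255 for miR-339 and 117788 for miR-339-5p. Spearman correlation of miR-4334-3p with miR-339 over the 24 libraries was 0.990, a description of counts that share sequence and depth. How much of the miR-4334-3p count came from its own hairpin is therefore uncertain. Elsewhere in the table, 8 sets of lower-numbered miRNAs, such as miR-9, miR-9-1 and miR-9-2, had the same count in every library, and no member belonged to such a set.

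miR-4334-3p was found at 331 to 642 CPM in H (median 456) and at 377 to 901 CPM in L (median 538). L6 was the highest library, and the other L libraries lay within or just above the H range. The log2 fold change was 0.21 with an SE of 0.14 (adjusted p = 0.617, edgeR quasi-likelihood test with Benjamini-Hochberg adjustment). For miR-339 it was 0.22 with an SE of 0.13 (adjusted p = 0.595, same edgeR test). Neither miRNA passed the test.

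miR-9843-3p, miR-2483 and miR-6529 made up the rest of the abundant members. miR-9843-3p lies at chr8:114110670-114110691 on the minus strand, in an intron of the sphingomyelin synthase gene SGMS2. miR-2483 lies at chrX:102636099-102636120 on the minus strand, in an intron of the teneurin gene TENM1. miR-9843-3p has the seed of miR-146a-3p, a strand of the miR-146a hairpin, which is known from immune cells; the bases after the seed differ. These sequences are shown for the shared seed and, for miR-2483, for its level.
miR-9843-3p: uCUGUGAAcuagaaaccucugg
miR-146a-3p: cCUGUGAAguuuaguucuucag
miR-2483: aAACAUCUgguugguugagaga
miR-146a-3p was found in 1 library only (L12), at 0.893 CPM, so nearly all reads of this pair belonged to miR-9843-3p. miR-9843-3p was found at 200.3 to 337 CPM in H (median 282) and at 158 to 389 CPM in L (median 249). The L libraries spread more widely than the H libraries, on both sides of the H range. Its log2 fold change was −0.10 with an SE of 0.16 (adjusted p = 0.885, edgeR quasi-likelihood test with Benjamini-Hochberg adjustment).

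miR-2483 varied more between boars than the other abundant members. It was found at 88.6 to 573 CPM in H (median 237) and at 33.4 to 573 CPM in L (median 166). H9 and L11 were far above the others, and L12 was the lowest. The log2 fold change was −0.30 with an SE of 0.31 (adjusted p = 0.812, edgeR quasi-likelihood test with Benjamini-Hochberg adjustment). Across the alternative settings it ran from −0.54 to −0.12. miR-6529 was found at 118 to 549 CPM in H (median 246) and at 137 to 622 CPM in L (median 232). Its highest libraries were L12 and L11, followed by H9, and the groups overlapped. The coefficients of variation were 56.0% for miR-2483 and 50.5% for miR-6529.

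The next 6 members had means of 7.96 to 33.6 CPM and were detected in every library. miR-9851-3p, in an intron of the HSP70-like gene HSPA12A, was found at 11.9 to 60.3 CPM in H and 14.7 to 60.4 CPM in L. miR-2320-5p was found at 9.75 to 37.1 CPM in H and 6.54 to 54.8 CPM in L, with L12 as the highest library. miR-3613 was found at 3.25 to 23.8 CPM in H and 3.06 to 29.7 CPM in L. In all 3 cases the H and L ranges overlapped. miR-10386 had the highest coefficient of variation of the 6 (76.4%), with 2.38 to 20.7 CPM in H and 2.13 to 35.9 CPM in L. miR-9820-5p, in an intron of SIL1, which encodes a cofactor of the chaperone BiP, was found at 2.74 to 17.3 CPM in H. In L it reached 17.96 CPM, while L12 held 1 read of it (0.179 CPM) and L8 held 13 reads (1.02 CPM). miR-7142-3p, in an intron of the polarity kinase gene MARK2, was found at 0.451 to 21.2 CPM in H and 1.73 to 18.8 CPM in L. None of these 6 passed the test, and their log2 fold changes ran from −0.25 for miR-7142-3p to 0.47 for miR-10386. Across the alternative settings, the value ran from −0.47 to −0.036 for miR-7142-3p and from 0.19 to 0.64 for miR-10386.

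miR-10384 was the only member called different between the groups, and it was higher in L. This miRNA was assayed further in the study, which reported a significant difference between H and L SPEVs by quantitative PCR. In the libraries miR-10384 was rare, but it was present in every one of them. In H it was found at 0.388 to 7.49 CPM with a median of 2.63 CPM (2 to 40 reads per library), and in L at 2.35 to 9.11 CPM with a median of 5.67 CPM (16 to 81 reads). H8 and H12 were low, with under 1 CPM, and L12 was the highest of all libraries. The groups overlapped, since 3 L libraries lay above the highest H library, while 11 of 12 L libraries lay above the H median.

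The log2 fold change of miR-10384 was 0.85 with an SE of 0.35 (unadjusted p = 0.0225, adjusted p = 0.424, edgeR quasi-likelihood test with Benjamini-Hochberg adjustment over 245 miRNAs). A miRNA was called when its unadjusted p was under 0.05 and its fold change was not between 0.67 and 1.5, which were the study's limits, so the call did not survive adjustment. With L8 and L12 both left out, an alternative chosen after seeing the data, the log2 fold change was 0.73 (unadjusted p = 0.0630, edgeR) and the call was lost. L8 and L12, which held the most leukocyte miRNA, had 6.35 and 9.11 CPM of miR-10384, and the part of leukocyte RNA in this difference was not tested. The other 10 L libraries had 2.35 to 7.56 CPM (median 4.88).

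**Figure D2:**
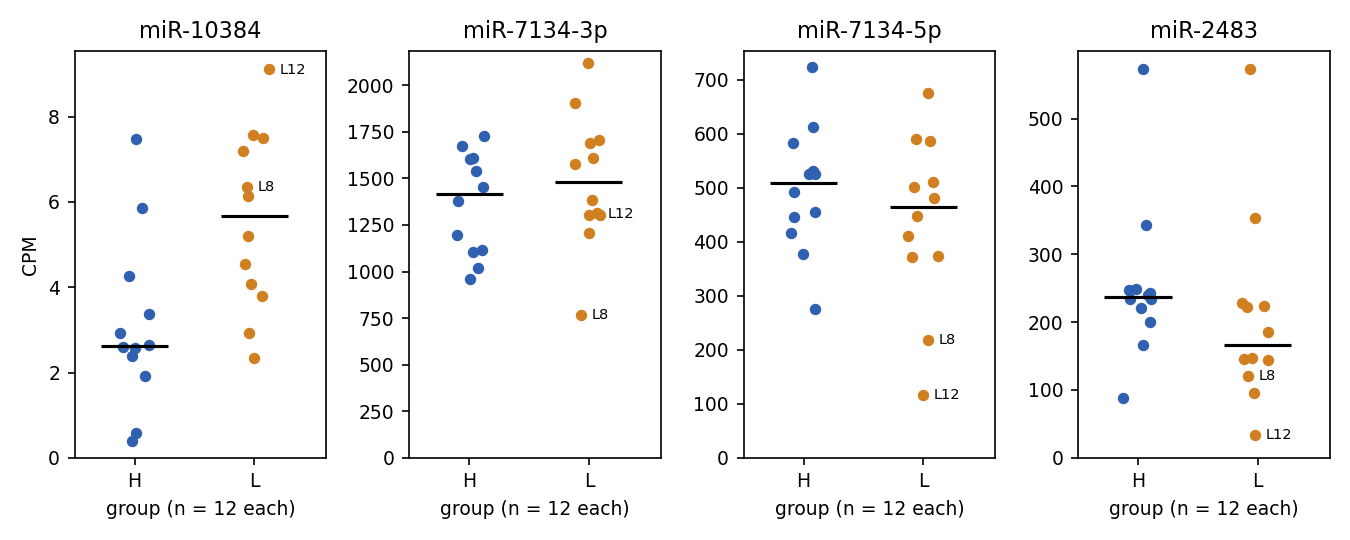
CPM of miR-10384, miR-7134-3p, miR-7134-5p and miR-2483 in each of the 12 H and 12 L libraries. Points are libraries, black lines are group medians, and L8 and L12 are named. The median of miR-10384 is 2.63 CPM in H and 5.67 CPM in L, and the groups overlap in every panel.

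miR-10384 was placed in the genome through the study's assay oligos. The last 16 bases of the forward oligo, followed directly by the complement of the last 6 bases of the reverse transcription oligo, were found at 1 place in Sscrofa11.1. This place is chr2:87391580-87391601 on the minus strand, in an intron of LHFPL2, a gene for a membrane protein with a tetraspan fold, and on the strand of that gene. The 22 bases at this place are the same as the sense strand of the miR-10384 mimic given in the study's methods. They are shown as the sequence of the only called member, with the seed in capitals.
miR-10384: cCCUGCGUggcuucucugugca
This seed was found in 0 of the 269 other miRNAs of the table with a sequence.

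Across the table, 17 of 245 miRNAs tested were called (6.94%), 13 of them higher in L (5.31%). Of the 49 members, 21 passed the filter on low counts, and 1 of these 21 was called. The members' count thus stood near the background. The median log2 fold change was 0.10 over the 21 members tested and 0.024 over all 245 miRNAs, and 11 of the 21 and 131 of the 245 had a positive value. At an adjusted p under 0.05, edgeR called 1 of 245 miRNAs (0.408%), miR-146a-5p, which is not a member. This number was 0 without L8, without L12, without both, and with the replicate block described below. It was also 0 with any single H library left out other than H8 or H11. No member was called at that threshold by edgeR or by DESeq2, and 1 member had an unadjusted p under 0.05 with either tool. The count over all miRNAs rested largely on the libraries that stood apart: 11 miRNAs were called without L8, 7 without L12, and 5 of 247 without both, 1 of them higher in L. Among the members, miR-10384 was called without L8 and without L12, and 0 members were called without both. The members' median log2 fold change was then −0.0068.

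Among the 21 members that passed the filter, miR-9860-5p had the next largest positive fold change after miR-10384. It was found at 0.346 to 5.96 CPM in H (median 2.26) and at 0 to 9.47 CPM in L (median 3.13). L10 had no read and L12 the highest level. The log2 fold change was 0.74 with an SE of 0.46 (unadjusted p = 0.120, adjusted p = 0.614, edgeR quasi-likelihood test with Benjamini-Hochberg adjustment). This miRNA was outside the rule for named miRNAs and was singled out after its values were seen. With H2 or L10 left out, or with the newer edgeR quasi-likelihood method (legacy=FALSE), it was called, with log2 fold changes of 0.98, 0.87 and 0.81 (unadjusted p = 0.0462, 0.0411 and 0.0383, edgeR). The largest negative value among the members that passed the filter was that of miR-7139-5p, from an intron of the repressor gene E2F7. It was found at 0.257 to 16.6 CPM in H (median 2.87) and at 0 to 5.82 CPM in L (median 2.47), with H6 far above the rest. Its log2 fold change was −0.60 with an SE of 0.55 (adjusted p = 0.777, edgeR quasi-likelihood test with Benjamini-Hochberg adjustment), and −0.10 without H6.

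**Figure D3:**
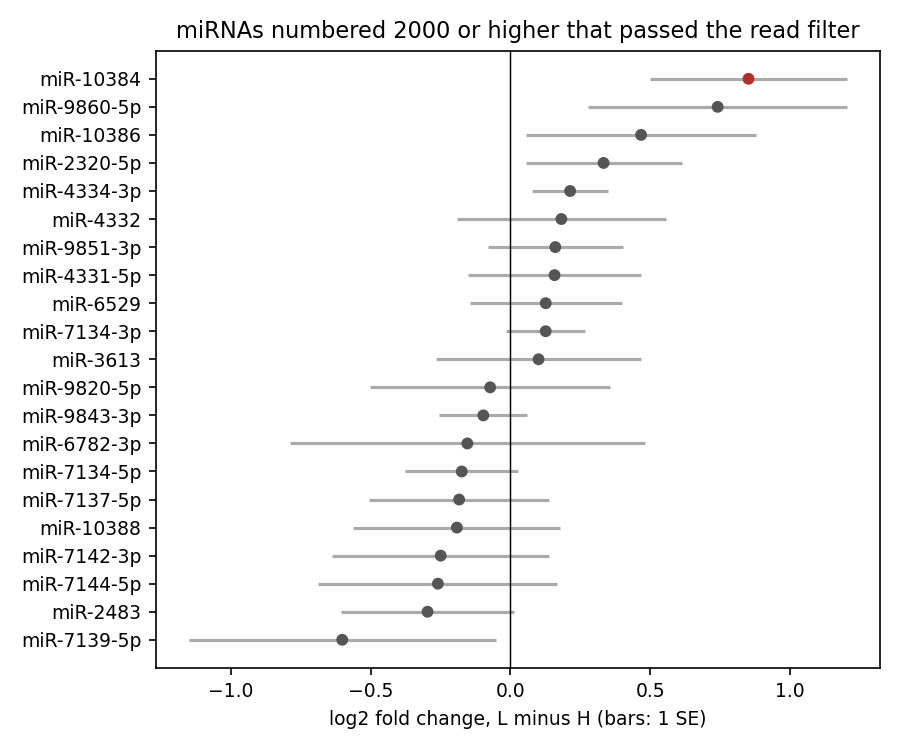
Log2 fold change (L minus H) of the 21 miRNAs numbered 2000 or higher that passed the filter on low counts. Points are estimates of the edgeR fit, bars are 1 SE, and red marks the called miRNA, miR-10384, at 0.85. The lowest value is −0.60, for miR-7139-5p.

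Without the filter, 36 of 345 miRNAs were called (10.4%) and 3 of 49 members. The additional members were miR-2366, with 4 reads in 2 H libraries, and miR-7142-5p, with 17 reads in 4 libraries. Both were too rare for a difference to be judged at this depth.

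Both arms were in the table for 11 of the members' hairpins. The 5p arm had more reads in 7 of them and the 3p arm in 4. For miR-7134 the 3p arm was higher in all 24 libraries, with 215196 reads against 70950 for the 5p arm. For miR-2320 the 5p arm held 98.2% of the reads, and for miR-7144 the 5p arm held 839 reads against 1 read of the 3p arm. miR-7142 was the opposite case, with 1281 reads of the 3p arm and 17 of the 5p arm. The arms of miR-7135, from an intron of the drug transporter gene ABCC1, were nearly even in total, with 148 reads of 5p and 178 of 3p. These reads came from 21 libraries, and the 5p share of a library ran from 0% to 100% in each group. miR-4331 had 506 reads of 5p and 293 of 3p. For the hairpins miR-7136, miR-7137, miR-7138 and miR-7139 the 5p arm held 84.5%, 91.1%, 85.7% and 88.2% of the reads. For miR-7138 this share rested on 12 reads of 5p and 2 of 3p, found in 4 libraries. For miR-7136 it rested on 93 reads of 5p and 17 of 3p, found in 12 libraries. miR-7137 had 637 reads of 5p and 62 of 3p, and miR-7139 had 500 and 67. For miR-7140 the 3p arm held 84.3%. One arm took over 90% of the reads in 4 of these 11 hairpins and in 39 of the 72 other hairpins with both arms in the table.

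The arm ratio of miR-7134 did not pass the adjusted test. The 5p arm made up 20% to 34.01% of its reads in H (median 26.0%) and 8.18% to 27.1% in L (median 23.4%). L12 was the lowest library, and the other values overlapped. The mean log2 ratio of 5p to 3p was −1.47 ± 0.29 (SD, n = 12) in H and −1.84 ± 0.54 (SD, n = 12) in L. The difference was −0.37 (p = 0.0192, two-sided permutation test; adjusted p = 0.567 over 59 hairpins by Benjamini-Hochberg). Without L12 the difference was −0.22 (p = 0.0385, permutation test), and without L8 and L12 it was −0.21 (p = 0.0604, permutation test). The only other member hairpin with enough reads, miR-2320, gives no usable comparison, since its 3p arm had 0 reads in 15 of 24 libraries and the pseudocount set the ratio there. The difference was −0.49 (p = 0.563, adjusted p = 0.857, permutation test) with a pseudocount of 0.5 and 0.084 with one of 5. Of the 59 hairpins tested, 0 (0.00%) passed an adjusted p under 0.05, and 2 had an unadjusted p under 0.05.

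miR-7140-3p reached its highest levels in the libraries that stood apart. Its hairpin lies opposite to an intron of REM1, a gene for a small GTPase. miR-7140-3p was found at 0 to 8.53 CPM in H (median 0.981) and at 0 to 25.0 CPM in L (median 1.75). L12 had 25.0 CPM (140 reads) and L8 had 11.6 CPM (148 reads), and the other 10 L libraries reached at most 2.65 CPM. miR-7140-5p had 10.00 CPM in L12 (56 reads) and 1.10 CPM in L8 (14 reads), and no read in the other 10 L libraries. It was detected in 7 H libraries, at up to 1.37 CPM in H6. Neither arm passed the filter, and without it neither was called (log2 fold change 1.28, SE 0.87, adjusted p = 0.565 for 3p and 1.54, SE 1.09, adjusted p = 0.578 for 5p, edgeR). L8 was also the highest library for miR-4332 with 19.4 CPM, against 1.61 to 9.98 CPM in the other 11 L libraries. The lowest of these was L12, and in H this miRNA reached 13.2 CPM (H5). miR-4332 was singled out after its values were seen.

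Mature sequences were found by name in the RefSeq annotation for 38 of the 49 members (77.6%) and for 231 of the 296 lower-numbered miRNAs (78.0%). With a sequence missing for this many, a comparison of sequence features between the members and the rest is void, and the values below describe the 38 members only. They were rich in G and C, with a median GC share of 59.1%, from 40.9% in miR-2483 to 76.2% in miR-9810-3p. The length was 20 to 24 bases with a median of 22, and the first base was U in 17, A in 12, C in 5 and G in 4 members. The letters GGAG, known as a motif of miRNAs sorted into vesicles, were present on the mature strand of 8 members, and the letters CCCU in 6. miR-4334-3p carried both.

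The members shared few seeds. No pair of members with a sequence had the same bases 2 to 8, and only miR-4334-3p and miR-9843-3p shared them with one of the 231 lower-numbered miRNAs that had a sequence. The 38 sequences matched 29 annotated hairpins, and 0 of these had another miRNA hairpin within 10 kb. An intron on the same strand held 17 of the 29, and 7 were intergenic. All 17 host genes of these introns encode proteins. They include BUD23 for miR-7137 and FGFR4 for miR-7138. miR-7144 lies opposite to a coding exon of ARGLU1, a splicing cofactor gene. miR-9788-3p was the only member with more than 1 annotated locus, both on chromosome 12.

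By number, 11 members were below 5000, 23 were from 5000 to below 9000 and 15 were at 9000 or higher. The median of the mean levels was 3.27 CPM, 0.946 CPM and 1.91 CPM in these blocks. The filter was passed by 6, 8 and 7 of them, and the called miR-10384 was in the last block. Lower down in the table, the 14 miRNAs numbered from 1000 to below 2000 had a median of 39.6 CPM, close to the 37.4 CPM of those below 1000 with let-7.

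The rarest members made up a long tail. In total 12 members had 1 to 20 reads over all libraries, and 5 were found in 1 library only: miR-4338, miR-7138-3p, miR-7144-3p, miR-9784-5p and miR-9831-3p. The 28 members that did not pass the filter had a median of 48.5 reads over the 24 libraries and at most 511, for miR-7140-3p. The number of members with at least 1 read was 24 to 38 per H library (median 30.0) and 22 to 42 per L library (median 31.0). L8 had the most and L10 the fewest. After thinning every library to 4189358 reads, the medians were 30.0 in H and 30.5 in L, with 40 members in L8.

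Marker miRNAs of other sources were measured in the same libraries. The epithelial miRNAs miR-141, miR-200b, miR-205 and miR-429 summed to a median of 71677 CPM in H and 73660 CPM in L. Testis and germ cell miRNAs summed to a median of 1037 CPM in H and 887 CPM in L. The erythrocyte miRNAs miR-144, miR-451 and miR-486 were low, with medians of 2.45 CPM in H and 2.30 CPM in L. Muscle miRNAs, mainly miR-499-5p, had medians of 94.2 CPM in H and 72.0 CPM in L. The sum of both miR-122 arms, a liver miRNA, had medians of 75.3 CPM and 77.9 CPM, and the nerve miRNAs miR-9 and miR-124a had 61.0 CPM and 69.3 CPM. miR-124a had 1 read in L8 and 0 in the other 23 libraries. The lists also held miR-200a, miR-200c, miR-203, miR-34b, miR-449a, miR-449b and miR-208b, which were not in the count table. The filter was passed by all 4 epithelial and all 4 testis miRNAs that were in it. In the nerve list 3 of 4 names passed (miR-9, miR-9-1 and miR-9-2, with the same counts). In the erythrocyte list 1 of 3 passed, in the liver list 1 of 2 and in the muscle list 1 of 6. None of the miRNAs that passed was called. In the muscle list, miR-206 did not pass and had a median of 3.96 CPM in H (0.419 to 6.34) and 0.162 CPM in L (0 to 1.78). Without the filter it was called as lower in L (log2 fold change −2.75, SE 0.69, unadjusted p = 0.000434, adjusted p = 0.0749, edgeR), and miR-499-3p was called as higher in L (log2 fold change 2.11, SE 0.96, unadjusted p = 0.0371, adjusted p = 0.313, edgeR). The other miRNAs of these lists that did not pass were not called there.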

How the data were processed

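The authors deposited raw read counts per mature miRNA for 24 small RNA libraries. The submitters' processing notes name cutadapt, FastQC, Bowtie and build susScr11, which is Sscrofa11.1. Members and lists were chosen with earlier results of these data known. Counts were analysed in edgeR 4.0.16 (R 4.3.3) with TMM scaling, filterByExpr at its default settings and the quasi-likelihood test with default prior count, without covariates. P-values were adjusted by Benjamini-Hochberg over all miRNAs that passed. DESeq2 1.42.0 was an alternative. The fit was tested on simulated data. Arm ratios used a pseudocount of 0.5, at least 20 reads of the 5p and 3p arms together in every library and 100000 permutations in Python 3.11.15. Named miRNAs were called members, the 12 most abundant members, members with both arms in the table or a shared seed, the lower-numbered miRNAs sharing that seed, miR-10384, and any count of 5 or fewer. Others, such as miR-206, miR-499-3p, miR-10388, miR-6782-3p and miR-9810-3p, were named outside this rule after their values were seen. Marker lists covered erythrocytes, leukocytes, epithelium, testis and germ cells, muscle, liver and nerve, with identical counts summed once. The library kit, QIAseq miRNA, adds molecular identifiers, and whether the counts were collapsed by them is not given in the sources used here.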

Additional observations from a re-analysis of the deposited data

How the results depend on the processing

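miR-10384 kept its direction and its call with unadjusted p-values under each other scaling, filter and test and without each library in turn, with log2 fold changes of 0.74 to 1.05 when 1 library was left out. The call was lost with L8 and L12 both left out (0.73), which was chosen after seeing the data; the cause was not tested. Of 672 recomputed fold changes of the 21 members tested, 648 kept their sign and their side of the threshold and 20 changed sign, among 6 members with values near 0.

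The number of miRNAs called was 36 without the filter, 5 without L8 and L12, 1 at an adjusted p under 0.05 without fold limits, and 7 to 21 when 1 library was left out. The number of members called was 3, 0, 0 and 1 to 2 under these settings. With legacy=FALSE, 20 of 245 miRNAs (8.16%) and 2 of 21 members were called. Without L8 and L12 the log2 fold change was −0.17 for miR-3613, −0.090 for miR-4332 and 0.18 for miR-9820-5p, and with library totals in place of TMM it was 0.0044 for miR-9820-5p. Leaving out 1 library gave −0.30 to 0.0044 for miR-10388, −0.030 to 0.19 for miR-3613, −0.18 to 0.40 for miR-4332, −0.032 to 0.26 for miR-6529, −0.31 to 0.33 for miR-6782-3p and −0.25 to 0.058 for miR-9820-5p. The cause of these changes was not tested. Without the 10 most abundant miRNAs in the denominator, the members' share was 1.15% in H and 1.14% in L, by construction higher. With a pseudocount of 5 the arm ratio of miR-2320 differed by 0.084 in place of −0.49. Arm ratios passed an adjusted p under 0.05 for 0 hairpins under every alternative.

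Same-numbered H and L libraries came from different boars and share only a number. With a replicate block on that number, 7 miRNAs and 1 member (miR-10384, log2 fold change 1.00) were called, and the log2 fold change was 0.018 for miR-10388, −0.021 for miR-4332 and 0.071 for miR-6782-3p. Correlations of same-numbered libraries were −0.40 to 0.48, and 0 of 12 H libraries correlated best with the L library of their own number. Depth limits what can be said of members under 1 CPM, where few reads decide a value.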
